A study of Mus musculus with 2 samples.

Results

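The epidermal differentiation complex is a cluster of genes on mouse chromosome 3 whose products build the cornified envelope of stratified squamous epithelium. Its members were taken from the GENCODE M21 annotation as the protein-coding genes on chromosome 3 whose symbol begins with Sprr, Lce or S100a, together with Ivl, Lor, Flg, Flg2, Hrnr, Rptn, Tchh, Tchhl1, Crnn and Crct1. This gave 60 of the 21938 protein-coding genes on named chromosomes. The 60 genes comprise 14 S100a genes, 15 Sprr genes, 21 Lce genes, 7 fused S100-type genes and 3 other envelope genes (Lor, Ivl and Crct1). The binding of EP300 was measured by ChIP-seq in the entire stomach of B6NCrl mice at birth (postnatal day 0), in 2 libraries of 1 group with no other tissue, stage or genotype. The libraries share 1 donor label and 1 biosample label, which leaves unstated whether their spread covers separate animals, and sex was not collected. The files hold peaks and no read counts, and sequencing depth is therefore unknown. In whole tissue, a strong peak in few cells and a weak peak in many cells cannot be told apart.

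EP300 (p300) is a histone acetyltransferase and co-activator that transcription factors bring to active enhancers and promoters. In cells at the end of squamous differentiation, involucrin, loricrin and the small proline-rich and late cornified envelope proteins are cross-linked by transglutaminases beneath the plasma membrane, while filaggrin and the other fused S100-type proteins bind keratin filaments or join the envelope. The mouse stomach has a forestomach lined by such a cornified epithelium beside a glandular part that lacks it, and the small S100 proteins, which bind calcium, are also made in muscle, fibroblasts and white blood cells.

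The mm10 sequences that the results turn on come first. The 4 windows below reach 100 bp to either side of a summit in the optimal set, the list of peaks that the authors kept as reproducible by the irreproducible discovery rate (IDR). They are shown because each is a distal or intronic site of the complex, and 3 of them hold an AP-1 site. Capitals mark matches, on either strand, to the consensus of AP-1 (TGANTCA), of TEAD (GGAATG) or of KLF and SP factors (CCNCNCCC).
summit in the S100a3 intron (chr3:90585636-90585836, plus strand): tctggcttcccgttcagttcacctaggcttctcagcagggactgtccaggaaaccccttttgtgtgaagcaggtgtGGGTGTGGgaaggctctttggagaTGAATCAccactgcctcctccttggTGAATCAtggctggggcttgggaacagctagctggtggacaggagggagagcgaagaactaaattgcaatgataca
summit between Lelp1 and Sprr2a1 (chr3:92169972-92170172, plus strand): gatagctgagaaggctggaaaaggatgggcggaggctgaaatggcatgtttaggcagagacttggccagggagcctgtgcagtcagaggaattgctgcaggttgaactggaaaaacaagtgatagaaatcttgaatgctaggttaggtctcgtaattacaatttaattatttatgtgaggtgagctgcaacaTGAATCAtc
summit between Ivl and Lce6a (chr3:92609917-92610117, plus strand): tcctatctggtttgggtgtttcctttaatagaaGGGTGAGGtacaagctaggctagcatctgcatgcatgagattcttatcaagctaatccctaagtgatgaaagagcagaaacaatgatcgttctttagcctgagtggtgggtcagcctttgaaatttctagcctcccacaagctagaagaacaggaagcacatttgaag
summit downstream of Lce3e (chr3:92978563-92978763, plus strand): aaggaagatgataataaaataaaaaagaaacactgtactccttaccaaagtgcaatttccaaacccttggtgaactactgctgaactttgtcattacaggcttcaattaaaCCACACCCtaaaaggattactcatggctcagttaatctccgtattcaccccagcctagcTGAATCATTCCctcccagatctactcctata

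The 6 stretches below are the 250 bases before the RefSeq start of a member (GRCm38.p6, the same assembly as mm10), written in the direction of the gene. They are shown because an AP-1 site and, in 5 of them, a TATA box stand ahead of the start, while EP300 at the same promoters ranged from a peak of the optimal set at Crnn and S100a11 to no peak at Ivl. Capitals mark AP-1 and KLF and SP matches on either strand, and TATAAA on the strand of the gene.
Crnn promoter (chr3:93144539-93144788, plus strand): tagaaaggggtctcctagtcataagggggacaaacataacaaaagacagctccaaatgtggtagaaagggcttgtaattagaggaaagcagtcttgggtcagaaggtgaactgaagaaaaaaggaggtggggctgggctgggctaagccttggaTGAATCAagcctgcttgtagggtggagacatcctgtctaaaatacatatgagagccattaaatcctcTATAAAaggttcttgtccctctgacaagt
S100a11 promoter (chr3:93520246-93520495, plus strand): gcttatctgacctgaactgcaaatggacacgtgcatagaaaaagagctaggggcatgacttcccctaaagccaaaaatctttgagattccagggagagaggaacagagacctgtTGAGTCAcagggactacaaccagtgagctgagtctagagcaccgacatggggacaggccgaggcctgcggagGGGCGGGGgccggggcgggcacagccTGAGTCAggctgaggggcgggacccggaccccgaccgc
Sprr1a promoter (chr3:92485882-92486131, minus strand): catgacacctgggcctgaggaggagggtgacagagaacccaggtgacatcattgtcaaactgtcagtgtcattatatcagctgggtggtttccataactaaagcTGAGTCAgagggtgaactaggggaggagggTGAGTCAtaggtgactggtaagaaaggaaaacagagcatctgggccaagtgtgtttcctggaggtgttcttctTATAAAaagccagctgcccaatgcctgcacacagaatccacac
Ivl promoter (chr3:92573736-92573985, minus strand): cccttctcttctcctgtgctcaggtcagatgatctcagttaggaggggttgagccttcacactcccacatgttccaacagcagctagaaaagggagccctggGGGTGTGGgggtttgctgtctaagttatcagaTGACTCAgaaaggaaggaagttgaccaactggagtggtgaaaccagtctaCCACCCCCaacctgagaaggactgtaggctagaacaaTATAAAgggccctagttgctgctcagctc
Lor promoter (chr3:92083143-92083392, minus strand): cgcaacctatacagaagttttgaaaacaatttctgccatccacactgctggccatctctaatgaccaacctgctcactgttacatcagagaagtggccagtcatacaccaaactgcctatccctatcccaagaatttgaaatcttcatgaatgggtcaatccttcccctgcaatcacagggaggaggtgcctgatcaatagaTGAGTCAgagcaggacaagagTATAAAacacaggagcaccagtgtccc
Sprr2d promoter (chr3:92338890-92339139, plus strand): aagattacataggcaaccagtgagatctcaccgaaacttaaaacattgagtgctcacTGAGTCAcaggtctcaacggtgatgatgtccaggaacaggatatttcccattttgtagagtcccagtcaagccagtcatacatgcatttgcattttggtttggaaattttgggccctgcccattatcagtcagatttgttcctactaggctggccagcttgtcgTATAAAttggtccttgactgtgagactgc

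The 60 genes lie in 2 blocks. The proximal block holds 12 S100a genes (chr3:90511034-90695721, 0.185 Mb), and the distal block holds the other 48 genes, from Lor to S100a10 (chr3:92080271-93564643, 1.48 Mb). A stretch of 1.38 Mb with no member separates them. From the outermost base of the first member to that of the last, 11 summits of the optimal set fell in the locus, with 2 in the proximal block, 9 in the distal block and 0 in the stretch between them. The density was 10.8 summits per Mb in the proximal block and 6.06 per Mb in the distal block, against 2.61 per Mb over chromosome 3 and 2.84 per Mb over all named chromosomes. Over the whole locus, with the stretch between the blocks, it was 3.6 per Mb. The proximal value rests on 2 summits, and the 9 distal summits form 8 separate regions. The distal block is also dense in genes, with 48 members and 10 other coding genes, against 1004 coding genes in the 160 Mb of chromosome 3. A further 3 summits lay outside the outermost members but within 50 kb of a member's start. Another 15 protein-coding genes lie inside the locus, among them Prr9, Lelp1, Smcp, Kprp, Pglyrp3 and Pglyrp4.

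**Figure D1:**
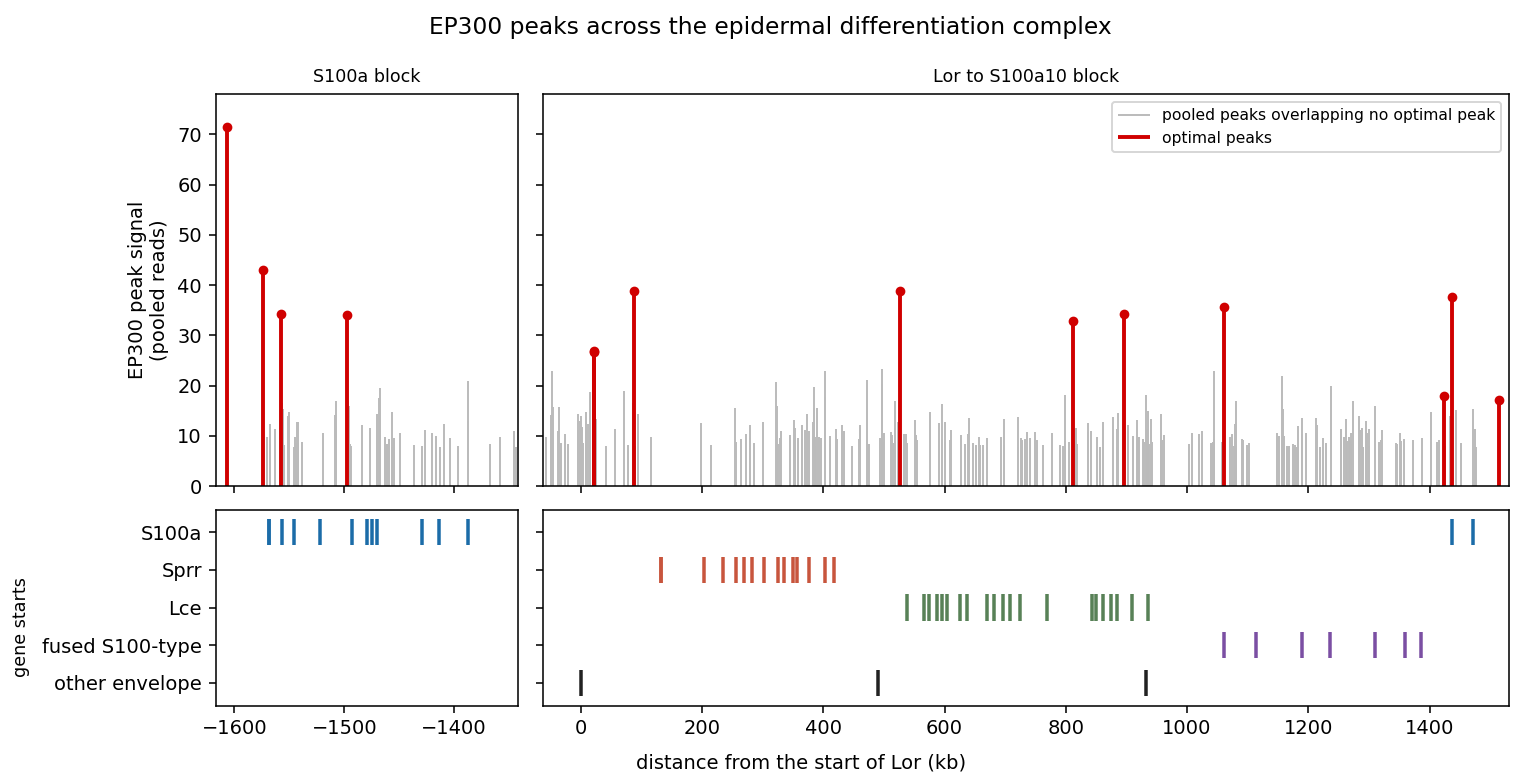
Signal of EP300 peaks in the pooled reads (vertical axis, the caller's signal value) by distance from the start of Lor (horizontal axis, kb), with the gene starts of each family below. Red stems are the 14 optimal peaks in the locus or within 50 kb of a member, grey stems are pooled peaks that overlap none of them, and the gap between the panels is the stretch with no member. The red stems stand ahead of and over the proximal S100a genes, near Lor, between Lelp1 and Sprr2a1, and between Ivl and the Lce genes. Others stand between Lce1l and Lce3a, over the Lce3 genes, at Crnn, at and upstream of S100a11 and beyond S100a10. None stands over the Sprr genes.

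Of the 60 members, 29 had an optimal summit within 50 kb of their start (48.3%, exact 95% interval 35.2 to 61.6), against 7664 of 21938 protein-coding genes (34.9%). The members lie close together and share summits, so the 29 genes rest on 14 peaks and the interval, which covers counting error only, treats them as more independent than they are. Nearer to the starts the order was the other way round. A summit lay within 1 kb of a coding transcript start in 2 members, Crnn and S100a11 (3.33%), against 11.1% of all protein-coding genes. Within 10 kb of the start it was 6 members, against 15.7% of all genes. Likewise 6 members were the gene nearest to at least 1 summit, against 19.3% of all genes. Of the 11 summits inside the locus, 9 were outside protein-coding genes and 2 in introns, against 49.0% outside such genes over all optimal summits. Of the 11, 6 lay more than 10 kb from the start of any protein-coding gene. Over all optimal summits, 44.7% lay more than 10 kb from any coding transcript start. The second measure counts more starts, so the 2 values cannot be compared directly. The median distance from a member's start to the nearest optimal summit was 56455.5 bp, against 103029 bp over all protein-coding genes.

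The S100a genes, which encode small calcium-binding proteins, had optimal summits nearby more often than the other large families, in 11 of 14 genes (78.6%). The highest count was 3 summits, reached by S100a1, S100a13 and S100a16 in the proximal block and by S100a10, the annexin A2 partner p11, at the distal end. The strongest peak close to them belonged to a neighbour. It lay 15 bp upstream of the start of Ilf2, the partner of the RNA-binding protein NF90 (chr3:90475831-90476390), with 71.5 units of signal when pooled, 34.4 in replicate 1 and 45.1 in replicate 2. Another had its summit 65 bp inside Chtop, a chromatin and mRNA export factor (chr3:90509153-90509712), in an exon outside the coding part, with 43.0 pooled, 21.3 in replicate 1 and 18.9 in replicate 2. Both are promoters of genes that are not members, and S100a1 and S100a13 lie within 50 kb of both.

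Inside the proximal block, the peak ahead of S100a14 had its summit 1328 bp upstream of the start (chr3:90525248-90525807), with a signal of 34.3 pooled, 27.8 in replicate 1 and 15.9 in replicate 2. A second peak of nearly the same pooled strength lay in an intron of S100a3, a protein of the hair cuticle, 4511 bp upstream of S100a2 (chr3:90585456-90586015), with 34.1 pooled, 16.6 in replicate 1 and 25.4 in replicate 2. The intron site also lay within 2 kb, but not within 1 kb, of a coding transcript start of S100a3. It is the only summit within 50 kb of S100a2, S100a4, S100a5 and S100a6. Its window printed above holds 2 AP-1 sites, with first bases at the summit and 25 bp after it. The 3 S100a genes without a summit were S100a7a, S100a8 and S100a9 at the far end of the block, with S100a9 the farthest, 109985 bp away. S100a8 and S100a9 form calprotectin, a protein complex abundant in neutrophils. A weaker pooled peak nevertheless stood 131 bp upstream of S100a9 (chr3:90695572-90696131), with a signal of 20.8 pooled, 9.63 in replicate 1 and 8.94 in replicate 2, which placed it at rank 11292 of the pooled list.

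At the other end of the complex, S100a11, an annexin A1 partner also known as calgizzarin, held 1 of the 2 member promoter summits. Its peak had the summit 206 bp inside the gene, in an intron (chr3:93520414-93520973), with 37.6 pooled, 16.5 in replicate 1 and 21.3 in replicate 2. A second optimal peak 13756 bp upstream of S100a11 (chr3:93506452-93507011) had only 17.9 pooled and 17.8 in replicate 2, and no peak of replicate 1 had its summit inside it. In the pooled list this optimal peak was the weakest of 3 overlapping peaks, and the strongest of them, 13343 bp upstream of S100a11 (chr3:93506865-93507424), had 28.2 pooled, 19.9 in replicate 1 and 7.03 in replicate 2. The libraries thus placed their strongest summit at different points of the same stretch. The last summit lay 42013 bp downstream of the start of S100a10 (chr3:93596813-93597372), with 17.2 pooled and 10.9 in replicate 2, again without a peak of replicate 1.

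The Sprr genes, which encode the small proline-rich proteins that bridge other envelope proteins, had the fewest summits. Only 2 of 15 had an optimal summit within 50 kb of their start (13.3%), below the 34.9% of all protein-coding genes, and none had a promoter summit. The order against all genes was not kept in the conservative set or in replicate 1 alone, as given below. The 2 genes were Sprr2a1 and Sprr2a2, at 45727 bp and 45848 bp from a single peak that is nearest to Lelp1, a late cornified envelope-like gene, 27328 bp upstream of its start (chr3:92169792-92170351). That peak was among the stronger ones of the locus, with 38.8 pooled, 27.6 in replicate 1 and 13.5 in replicate 2. The GENCODE record of Sprr2a2 starts at 92215920, beside that of Sprr2a1 at 92215799, whereas RefSeq puts the promoter of Sprr2a2 at chr3:92250397-92250696, more than 50 kb from the summit. For the other 13 Sprr genes the nearest optimal summit was between 109524 bp (Sprr4) and 215613 bp (Sprr2h) away.

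Weaker EP300 peaks were present at the distal end of the Sprr cluster. The strongest lay 591 bp upstream of the start of Sprr1a (chr3:92486206-92486765), with 22.8 pooled, 16.2 in replicate 1 and 11.1 in replicate 2. The conservative IDR set, a second and shorter list kept by the authors, held this peak and 2 overlapping ones at the same promoter, with summits 258 bp upstream (17.8 pooled) and 74 bp inside the gene (15.2 pooled), although the optimal set held none of the 3. Sprr1a, Sprr1b, Sprr3 and Sprr4 therefore had a summit within 50 kb in the conservative set, and so they did among the strongest peaks of replicate 1 alone, but not among those of replicate 2 alone. Sprr2a1 and Sprr2a2 kept theirs in the conservative set and in replicate 1 alone. The shares of all genes there were 33.3% and 38.9%, and the Sprr genes were below neither. At the proximal end the pooled list was thin. Sprr2a3 had 2 pooled peaks within 50 kb and its strongest had a signal of 12.6, and Sprr2a1 and Sprr2a2 had 5 pooled peaks each, against a median of 19 over the members and 12 over all protein-coding genes.

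The surroundings of these Sprr2 genes also had the highest share of repeated sequence among the members. Of the 36-base words starting within 50 kb of the start, 62.9% occurred more than once in the locus for Sprr2a1, 60.8% for Sprr2a3 and 31.8% for Sprr2b, against a median of 5.88% over all members and 1.98% over the S100a genes. From Sprr2f to Sprr2k the share was 5.19% or less, and none of these genes had an optimal summit within 50 kb, whereas Sprr2a1 and Sprr2a2 had the peak described above. How the authors treated reads that match several places is not given in the sources used here, and the part of repeated sequence in the low counts at Sprr2a1 to Sprr2b was not tested.

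**Figure D2:**
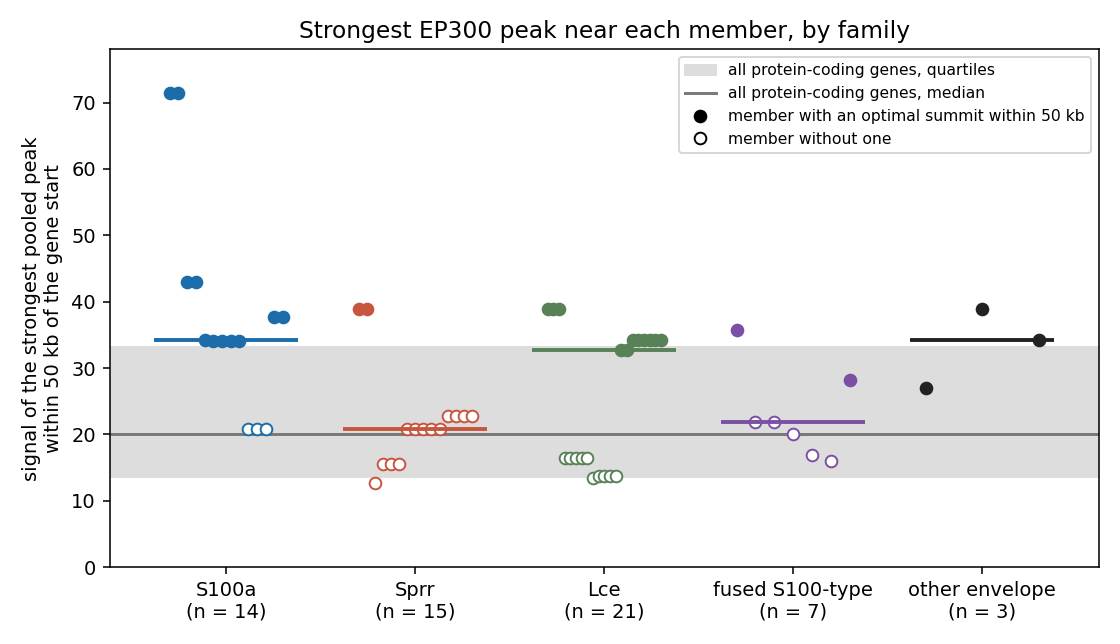
Signal of the strongest pooled EP300 peak within 50 kb of each member's start (vertical axis, the caller's signal value), by family (horizontal axis); each point is a gene, filled where an optimal summit lies within 50 kb, and coloured bars are family medians. Family medians were 34.2 for S100a, 20.7 for Sprr, 32.8 for Lce, 21.8 for fused S100-type and 34.2 for other envelope genes, and the grey line and band give the median (20) and quartiles (13.6 and 33.2) of all protein-coding genes. Points at the same height are neighbouring genes that share a peak.

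The Lce genes, which encode late cornified envelope proteins, split by their position in the cluster. An optimal summit lay within 50 kb of 11 of the 21 genes (52.4%), made up of all 6 Lce3 genes (Lce3a to Lce3f), Lce6a, and 4 of the 14 Lce1 genes (Lce1a1, Lce1b, Lce1l and Lce1m). None of the 21 had a promoter summit. The 10 Lce1 genes without one, from Lce1a2 to Lce1k, form a single run in which the strongest pooled peak within 50 kb had a signal between 13.5 and 16.4. The genes with a summit flank this run. On its proximal side a peak lay 11643 bp downstream of the start of Lce6a, beyond the gene's end, and 2525 bp upstream of 2210017I01Rik (chr3:92609737-92610296), with 38.8 pooled, 17.7 in replicate 1 and 22.1 in replicate 2. On its distal side a peak 23998 bp upstream of 2310050C09Rik and 32016 bp downstream of the start of Lce3a (chr3:92893934-92894493) had 32.8 pooled, 18.3 in replicate 1 and 11.4 in replicate 2. The peak closest to the start of any Lce gene lay 11602 bp downstream of that of Lce3e (chr3:92978383-92978942), with 34.2 pooled, 12.2 in replicate 1 and 18.3 in replicate 2. Its window holds an AP-1 site whose last bases overlap a TEAD site, 70 and 75 bp after the summit.

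All 3 of the other envelope genes had a summit within 50 kb and none within 10 kb. Ivl, involucrin, an early scaffold of the envelope, shared the peak beside Lce6a, 36282 bp from its own start. Crct1, a small cysteine-rich protein gene between Lce3f and Lce1m, shared the peak downstream of Lce3e at 37024 bp. Lor, loricrin, the main component of the mature epidermal envelope, had 2 overlapping optimal peaks upstream, at 21414 and 21632 bp (chr3:92104276-92104835 and chr3:92104494-92105053), with 26.6 and 26.9 pooled. Both peaks contain the same peak of each library, with 12.5 in replicate 1 and 12.3 in replicate 2, so they count as 1 region. They lie in the sense-overlapping non-coding gene AC138676.1 and nearer to Prr9, and Lor had no summit within 50 kb in the conservative set, in the stronger 50% of the optimal set, or among the strongest peaks of either library alone. At the promoters themselves, Crct1 had a pooled peak with its summit 604 bp inside the gene (18.1 pooled, 13.5 in replicate 1 and 5.83 in replicate 2), Lor had pooled peaks of up to 14.04 within 1 kb, and no pooled peak lay within 1 kb of Ivl.

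The fused S100-type genes encode large proteins with an S100-like calcium-binding start and long repeats. An optimal summit lay within 50 kb of 2 of the 7, Crnn and Tchhl1. Crnn, cornulin, a protein of the upper layers of squamous epithelium, was the other member with a promoter summit, 122 bp upstream of the start (chr3:93144385-93144944), with 35.7 pooled, 10.03 in replicate 1 and 22.8 in replicate 2. The signal of replicate 1 there was the lowest among the 12 peaks near the complex that both libraries listed, and Crnn had no promoter summit among the strongest peaks of replicate 1 alone. A weaker peak 16655 bp upstream of Crnn (chr3:93127852-93128411) had 22.8 pooled, 14.7 in replicate 1 and 11.5 in replicate 2, and it was in the conservative set. Tchhl1, a trichohyalin-like gene, was 37978 bp from the peak upstream of S100a11 on which the libraries differed, and it had no summit in the stronger 50% of the optimal set.

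Flg2, Flg, Hrnr, Rptn and Tchh had no optimal summit within 50 kb, at distances between 52613 bp (Flg2) and 175084 bp (Hrnr). Flg, filaggrin, the keratin-aggregating protein of the cornified layer, had a pooled peak of 13.6 within 1 kb of its start and a stronger one 33309 bp upstream (chr3:93239934-93240493), with 21.8 pooled, 5.94 in replicate 1 and 14.3 in replicate 2. Flg and Flg2 had a summit within 50 kb among the strongest peaks of replicate 2 alone. Hrnr, hornerin, had a pooled peak 630 bp inside the gene, in an intron, with 20.01 pooled, 7.84 in replicate 2 and none in replicate 1. Rptn, repetin, had one 202 bp upstream, with 16.0 pooled, 7.93 in replicate 1 and 7.54 in replicate 2.

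**Figure D3:**
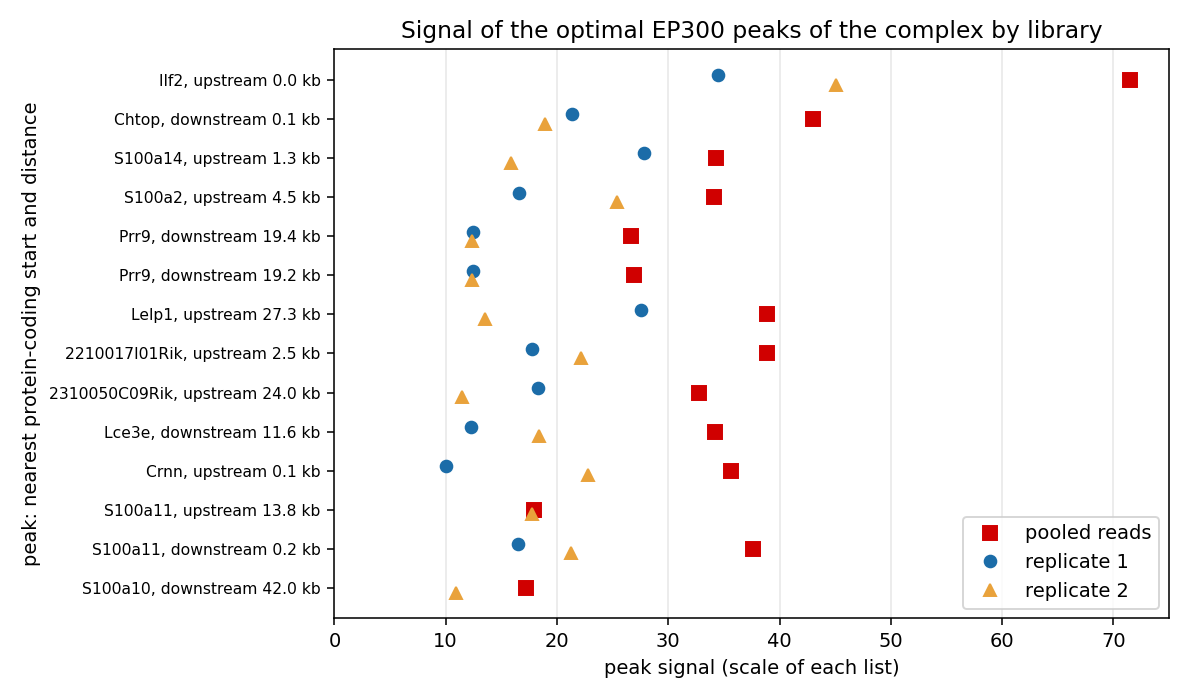
Signal (horizontal axis, on the scale of each list) of the 14 optimal peaks in the locus or within 50 kb of a member, in genome order from top to bottom, named by the nearest protein-coding gene and the distance to its start. Red squares are the pooled reads, blue circles replicate 1 and orange triangles replicate 2; the peaks 13.8 kb upstream of S100a11 and 42.0 kb downstream of S100a10 have no circle because replicate 1 listed no summit inside them.

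Among the 14 peaks, 12 were found in both libraries and 10 were also in the conservative set. The scales of the lists differ, and 2 libraries of 1 group allow no test between them. Every one of the 14 peaks had the full width of 560 bp of its list. The median pooled signal of the 11 peaks inside the locus was 34.2, within a range from 17.9 to 38.8, against a median of 30.2 and quartiles of 23.7 and 39.7 over all optimal peaks. The 11 peaks thus stood around the middle of the optimal set, and none reached its upper quartile.

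The same is seen when the peaks of the pooled list are taken in order of strength. Among the 2000 strongest pooled peaks, 4 members had a summit within 50 kb (6.67%), against 17.2% of all protein-coding genes, and all 4 were S100a genes close to Ilf2 and Chtop. Among the 5000 strongest it was 27 members (45%), against 30.2%. With 15000 peaks it was 44 members (73.3%), against 50.9%, and with 30000 peaks 54 members (90%), against 64.9%. Between 7737 and 15000 peaks the Sprr genes gained most, with 2 of 15 among the 7737 strongest peaks, 6 among 10000 and 11 among 15000. This gain rests on few peaks that neighbours share. The peak 591 bp upstream of Sprr1a (rank 8953) added Sprr1a, Sprr1b, Sprr3 and Sprr4. A peak 2381 bp upstream of Sprr2i (rank 11387) added Sprr2f, Sprr2h, Sprr2i, Sprr2j-ps and Sprr2k. The median signal of the strongest pooled peak within 50 kb was 22.8 over the members (quartiles 16.8 and 34.2), against 20 over all protein-coding genes (quartiles 13.6 and 33.2).

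**Figure D4:**
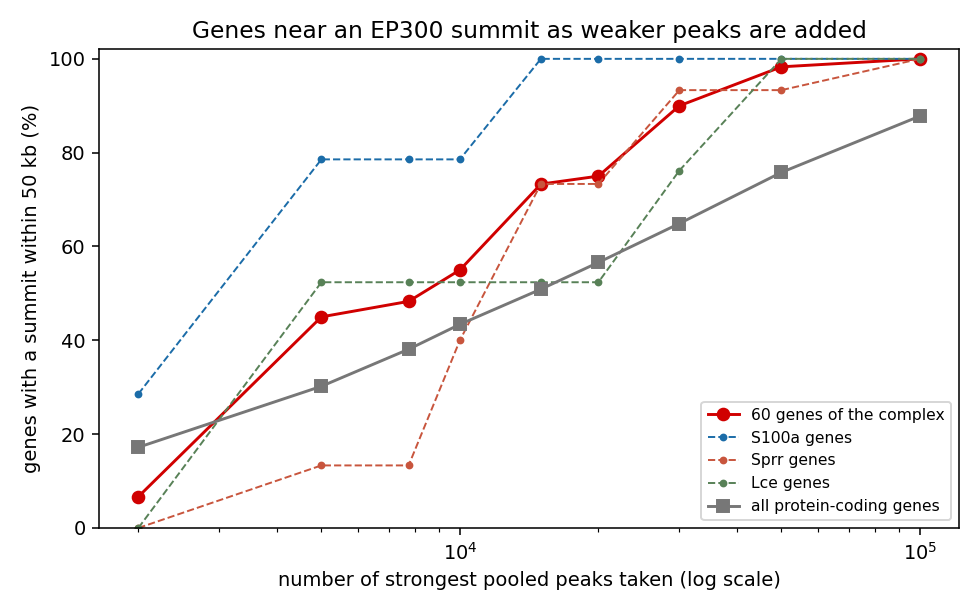
Share of genes whose start lies within 50 kb of a summit (vertical axis, percent) as more of the strongest pooled peaks are taken (horizontal axis, log scale). The thick red line is the 60 members, thin dashed lines are the S100a, Sprr and Lce genes, and grey squares are all protein-coding genes. The members lie below all genes at 2000 peaks (6.67% against 17.2%) and above them from 5000 peaks on, and the Sprr line climbs between 7737 and 15000 peaks. Neighbouring Sprr genes share the peaks added there.

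The pooled list held 404 peaks in the locus, of which 386 overlapped no optimal peak. Their median signal was 9.85 and the highest 23.4. Only 79 of the 386 were in both replicate lists, while 107 were in replicate 1 alone, 150 in replicate 2 alone and 50 in neither. Of the 12 strongest, 11 were in both libraries and 8 within 10 kb of a member's start. They were picked by pooled signal, which draws on both libraries, so their fuller sharing is no separate support. A listing can also be weak, as at the site upstream of Sprr3, at rank 293404 in replicate 1. The strongest of all lay 5281 bp upstream of Ivl (chr3:92578736-92579295), with 23.4 pooled, 8.42 in replicate 1 and 12.4 in replicate 2. Another overlapping peak 5551 bp upstream of Ivl had 20.4 pooled. Ivl had a further such site 19138 bp downstream of its start (21.2 pooled, 7.55 in replicate 1 and 10.98 in replicate 2), and Lor had one 48269 bp downstream of its start, nearest to Pglyrp3 (22.9 pooled, 11.3 in replicate 1 and 11.8 in replicate 2). Further ones lay 2381 bp upstream of Sprr2i (20.7 pooled, 10.4 in replicate 1 and 11.8 in replicate 2), 8894 bp upstream of Sprr3 (19.8 pooled, 4.79 in replicate 1 and 11.5 in replicate 2) and in an intron of S100a6 (19.5 pooled, 7.68 in replicate 1 and 6.22 in replicate 2). Together these 12 sites lay within 50 kb of 15 of the 31 members without an optimal summit. Neighbours share sites, and 6 of the 15 lie near the site upstream of Sprr2i alone, so the genes are not separate gains. No share over all genes was taken for this count. Within 1 kb of the gene start, 22 of 60 members had a pooled peak of any strength (36.7%), against 40.9% of all protein-coding genes.

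The highest pooled signals at member starts, after S100a11 (37.6) and Crnn (35.7), were those of Sprr1a (22.8), S100a9 (20.8), Hrnr (20.01), Crct1 (18.1), S100a14 (16.6), Lce1c (16.4), Rptn (16.0) and S100a10 (15.4). Beyond the 2 promoters in the optimal set, the peaks at member starts were thus weaker than the median optimal peak. Peaks outside that set are mostly weaker by its selection, so this says little about the members. Among genes with a pooled peak within 1 kb, the median signal was 14.7 over 22 members and 16.0 over all genes. At S100a14 the promoter peak had 6.06 in replicate 1 and 6.54 in replicate 2. At Lce1c it had 9.34 in replicate 2 and none in replicate 1, and at S100a10 it had 5.58 in replicate 1 and 14.02 in replicate 2.

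The consensus of AP-1, the Jun and Fos factors that act in squamous differentiation, was present within 100 bp of 4 of the 11 summits in the locus, against 12.7% of all 7733 optimal summits on named chromosomes. It was found at the S100a3 intron, between Lelp1 and Sprr2a1, downstream of Lce3e and at the Crnn promoter. In windows of the same length centred 1000 bp away it was found at 1 of the 11 places, against 5.68% over all summits. Within 50 bp of the summit the count was 2 of 11, a window for which no share over all summits is given. In the flanking windows TEAD and KLF and SP sites were found at 3 of the 11 places each. Over all summits these flanking shares were 10.3% for TEAD and 20.1% for KLF and SP. KLF and SP sites were found at 4 of the 11, against 33.5% of all summits, TEAD sites at 1, against 14.2%, and CEBP sites (TTGCNNAA) at 1, against 11.3%. Grainyhead sites (ACCGGTT), ETS sites (CCGGAAG) and the paired p53-family sites were at none of the 11, against 1.45%, 6.00% and 0.582% of all summits. With 11 summits these counts are a description, and a match says only that the letters are there. The median GC content of the 11 windows was 47.8%, against 50.7% of all, and 8 of the 11 held sequence that the reference marks as repeat, against 50.4% of all.

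The promoters of the members were then searched for the same motifs and for the TATA box, a search chosen after the summit motifs were seen. RefSeq gave 58 promoters of 300 bases (250 before and 50 after the start) for 54 of the 60 members, and 20150 promoters of protein-coding genes in all. TATAAA on the strand of the gene was in 22 of the 58 (37.9%), against 7.95% of all. The AP-1 consensus was in 18 (31.0%), against 7%. KLF and SP sites were in 15 (25.9%), against 57.9%, and ETS sites in 0, against 11.9%. TEAD sites (19.0%, against 13.4%) and CEBP sites (10.3%, against 10%) were closer to the share of all promoters, and grainyhead and p53-family sites were in none of the 58, against 1.21% and 0.64%. The median GC content was 46.8%, against 57.0%, and the median number of CpG pairs was 1.5, against 14. Members of a family descend from common ancestors, so their promoters are not independent.

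**Figure D5:**
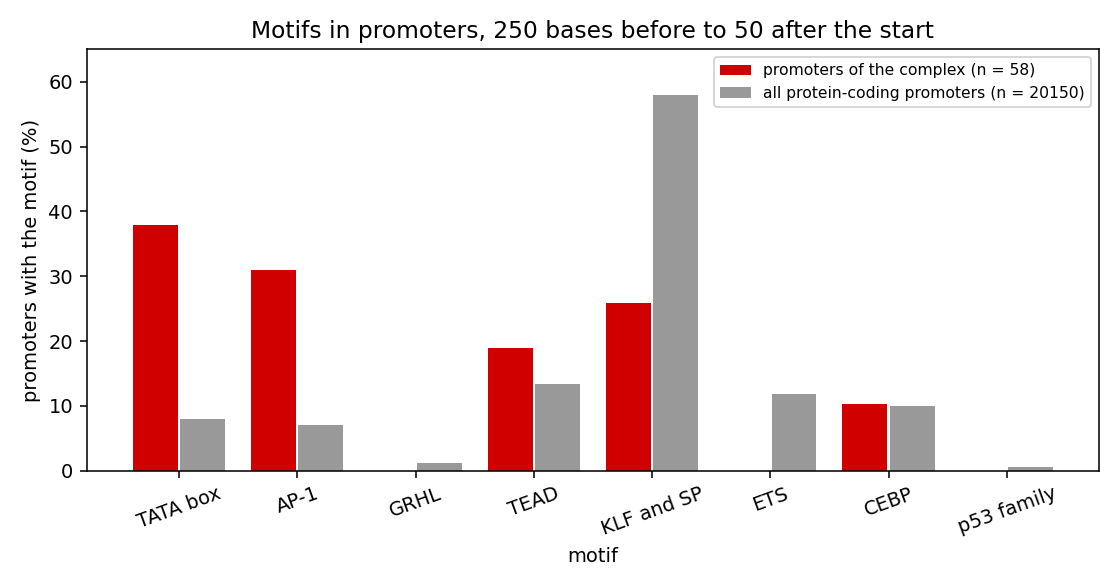
Share of promoters (vertical axis, percent) that hold each motif (horizontal axis), for the 58 RefSeq promoters of the complex in red and all 20150 protein-coding promoters in grey. The TATA box (37.9% against 7.95%) and AP-1 (31.0% against 7%) are more frequent in the complex, and KLF and SP (25.9% against 57.9%) and ETS (0 of 58 against 11.9%) are less frequent.

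The families differed in these promoters. Of the 14 Sprr promoters 10 had the TATA box and 9 the AP-1 consensus, and of the 7 fused S100-type promoters 4 had the TATA box and 5 the AP-1 consensus. Both promoters of the other envelope genes that matched, Ivl and Lor, held both. By contrast, 2 of the 20 Lce promoters had the TATA box and none the AP-1 consensus, and the 15 S100a promoters had them in 4 and 2. In Crnn and Ivl the TATA box began 29 bases before the start. The AP-1 site began 96 bases before the start in both Crnn and Rptn, and 103 in Flg, 116 in Ivl and 48 in Lor. Sprr1a had 2 AP-1 sites, and S100a11 had 2 with no TATA box, at 136 and 38 bases before the start. In 7 Sprr2 genes (Sprr2b, Sprr2d, Sprr2e, Sprr2f, Sprr2h, Sprr2i and Sprr2k) the TATA box began 29 bases and an AP-1 site between 193 and 198 bases before the start, as in the Sprr2d sequence printed above. The nearest optimal summit to Sprr2d was 169068 bp away. AP-1 sites thus stood both in promoters with an optimal summit (Crnn and S100a11) and in promoters with none (Ivl, Lor, Flg and these Sprr2 genes).

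Other genes of the squamous programme, outside the complex, were counted in the same way. Of 24 transcription factors of squamous epithelium, 13 had an optimal summit within 50 kb of their start (54.2%), led by Zfp750, a p63 target, with 6, Grhl2, a grainyhead factor, with 5, and Hopx, Klf5, Notch1 and Ovol1 with 3 each. Of 18 genes of envelope assembly it was 13 (72.2%), led by Tgm1, the transglutaminase that cross-links the envelope, Evpl, envoplakin, Sfn and Calm4 with 4 each. Of 10 proteases and inhibitors it was 6 (60%), with 6 summits at Asprv1, a protease that cuts profilaggrin, and 2 each at Klk7, Klk8, Prss8 and Spint1. These shares stand beside 34.9% of all protein-coding genes and 48.3% of the complex. Genes of these lists can also share summits with neighbours. Counted by nearest start, 13 of the 24, 9 of the 18 and 2 of the 10 were nearest to at least 1 summit, against 19.3% of all genes. Of the list genes named above, only Tgm1, Klk7, Klk8 and Prss8 were nearest to none. The marker lists of tissue layers gave 3 of 7 genes for squamous epithelium, 3 of 6 for gastric surface and glands, 4 of 4 for smooth muscle and 1 of 5 for blood and immune cells, beside the same 34.9% of all protein-coding genes. Krt13 and Krt14, keratins of squamous epithelium, had 6 and 3 summits within 50 kb, while Krt5, Krt4 and Krt6a had none. Neither Krt13 nor Krt14 was the gene nearest to any of these summits. Dsg3, of the same list, had 3 within 50 kb and was the gene nearest to 3 summits. Trp63, the p63 gene, had none within 50 kb of its gene start but had a promoter summit at another coding transcript start.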

How the data were processed

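The authors deposited 5 lists of peaks on mm10: 1 per library, 1 from the libraries pooled, and 2 IDR sets called optimal (7737 peaks, 7733 on named chromosomes) and conservative (6974). Peak strength is the deposited signal value, whose scale differs between lists. The deposited score of the IDR sets was not used, and the deposited summit offset counts bp from 0 at the peak start. Which aligner, peak caller and controls were used is not given in the sources used here, depth is unknown, and the replicate and pooled lists all stop at 300000 peaks.

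Coordinates are 1-based. A gene start is the 5' end of its GENCODE M21 record. A library's value is its strongest peak with a summit inside the peak described. Weaker sites are pooled peaks of the locus that overlap no optimal peak. Named by rule were members with a summit within 50 kb, the nearest gene of each summit, the 10 members with the highest pooled signal within 1 kb of their start, and up to 4 genes of each pathway list with the most summits. Genes tied for the last place in a pathway list were all named, which goes past that rule (Hopx, Klf5, Notch1 and Ovol1; Klk7, Klk8, Prss8 and Spint1). These ties, other genes named, the promoter search, the repeated words and the number of weaker sites described (12) were chosen after values were seen. The members and lists were chosen with earlier results of these data known, so no test was run. Intervals are exact (Clopper-Pearson) and cover counting error only. Peak assignment and motif search were checked on simulated data (Python 3.11.15, numpy 2.4.6, pandas 2.3.3, scipy 1.17.1, pysam 0.24.0, matplotlib 3.10.9). Alternatives were the other peak sets, each library alone, other windows and assignment to the nearest start.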

Additional observations from a re-analysis of the deposited data

How the results depend on the processing

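No paired analysis was possible because the 2 libraries form 1 group. Of 67 alternatives over 15 results, 50 stayed within 1.5 times the value given above and 17 moved further. With a 10 kb window, 6 members had a summit, against 15.7% of all genes. In that window 7 of 24 squamous factors, 7 of 18 envelope assembly genes and 2 of 10 proteases and inhibitors had one. The median strongest pooled signal within 10 kb was 14.1 (all genes 13.7). With each summit given to the nearest start, 6 members and 2 proteases remained counted, against 19.3% of all genes. With a 1 kb window the median pooled signal was 14.7 (all genes 16.0), and with a 2 kb window 4 members had a promoter summit, S100a14 and S100a3 being added to Crnn and S100a11. In the stronger 50% of the optimal set 8 of 24 squamous factors had a summit, against 26.1% of all genes. Within 50 bp of the summit, AP-1 was at 2 summits, TEAD at 0 and CEBP at 0. From 1 replicate list in place of the pooled list, the median strongest signal was 13.3 to 14.2 and that of the locus peaks 16.5 to 17.8, on lists whose scales differ. With replicate 1 alone 30 members had a summit, against 38.9% of all genes, and with replicate 2 alone 28, against 37.9%. The share of all genes was thus higher than the 34.9% of the optimal set. Of the 29 members counted above, 26 were shared with each library. Depth is unknown, so a site missing from a list is not shown to be unbound.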
